A study of Mus musculus with 2 samples.

Results

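The collagen gene family was described in the embryonic facial prominence, the tissue that forms the face, of B6NCrl mouse embryos at embryonic day 10.5. Its members were the 44 protein coding genes of the deposited tables whose symbol has the form Col, number, a, number, out of 21474 named protein coding genes. RNA was measured by total RNA-seq in 1 group of 2 pools with no treatment and no control. Replicate 1 was a pool of 69 embryos and replicate 2 a pool of 51, both of mixed sex, and 10 ng of RNA went into each library. Each pool held whole prominences of many embryos, so levels are averages over all their cell types, and fewer expressing cells cannot be told apart from less RNA per cell.

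Collagens are the structural proteins of the extracellular matrix whose chains carry long runs of the repeat glycine-X-Y and wind around each other into a helix. Fibrillar collagens form the fibers of connective tissue, type IV collagen forms the sheet of the basement membrane, fibril-associated collagens decorate fibers, and transmembrane collagens sit in the plasma membrane of cells. In the embryonic face, mesenchyme from the neural crest lays down fibrillar collagen and later forms cartilage and bone, while ectoderm and vessels rest on basement membranes.

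Expected counts over genes came to 40059176 in replicate 1 and 39531700 in replicate 2, and collagen genes took 0.456% of them in replicate 1 and 0.404% in replicate 2 (mean 0.430% ± 0.0371, SD, n = 2). Lists of marker genes were set beside the tissue label. Whether each gene marks only its listed cell type in this tissue was not tested. All 6 mesenchyme markers were detected, with summed levels of 616 TPM in replicate 1 and 595 TPM in replicate 2, and Msx1 was the highest of them at 292 ± 15.1 TPM. All 6 markers of surface ectoderm (led by Krt18 at 84.7 ± 3.08 TPM) and all 6 of endothelium (led by Egfl7 at 79.8 ± 2.65 TPM) were also detected. Of 8 cartilage markers 5 were detected, led by Sox9 at 92.5 ± 3.18 TPM, and of 6 osteoblast markers 3, led by Alpl at 13.2 ± 3.35 TPM. Of 6 genes listed for neural tube 5 were detected, led by Pax6 at 14.8 ± 5.40 TPM, and of 6 heart markers 2, led by Myl7 at 12.3 ± 11.0 TPM. Detection meant at least 1 TPM in each pool, which 58.2% of all protein coding genes reached. These counts alone therefore do not identify the tissue. TPM is a level per length of transcript, scaled to the same total in each library, and values below are the mean ± SD of the 2 pools unless each pool is given. The replicates were separate pools, and with 2 of them each SD is itself imprecise.

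Collagen expression was concentrated in a few genes. Col3a1, Col2a1, Col18a1, Col1a2, Col4a1, Col26a1, Col9a1 and Col1a1 together made up 84.7% of the summed collagen TPM in replicate 1 and 85.4% in replicate 2. Col3a1 alone held 24.3% in replicate 1 and 23.4% in replicate 2. Genes reaching 1 TPM in each of the pools counted as detected, which held for 27 of the 44 members (61.4%), close to the 58.2% of all protein coding genes. The median member stood at 5.06 TPM, against 3.57 TPM over all protein coding genes. Among detected genes alone the collagen median was 10.4 TPM, against 20.1 TPM over all detected protein coding genes. The family therefore held some very abundant genes beside many low ones, and its detected share lay near the background.

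The threshold of 1 TPM fell within a cluster of low members, and a gap lay above it. Col22a1, the detected member of lowest level, had 2.25 TPM in replicate 1 and 3.79 TPM in replicate 2. Below it, Col4a6 had 0.97 and 1.02 TPM, Col8a1 1.15 and 0.73 TPM, Col11a2 0.86 and 1.00 TPM, and Col24a1 0.94 and 0.91 TPM in replicates 1 and 2. When the members were ordered by mean level, 31 of the 43 steps between neighbours were smaller than the difference between pools, in that the ranges of the 2 libraries overlapped. The clear steps included those from Col3a1 to Col2a1, from Col2a1 to Col18a1, from Col1a1 to Col4a2 and from Col22a1 to Col4a6.

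**Figure D1:**
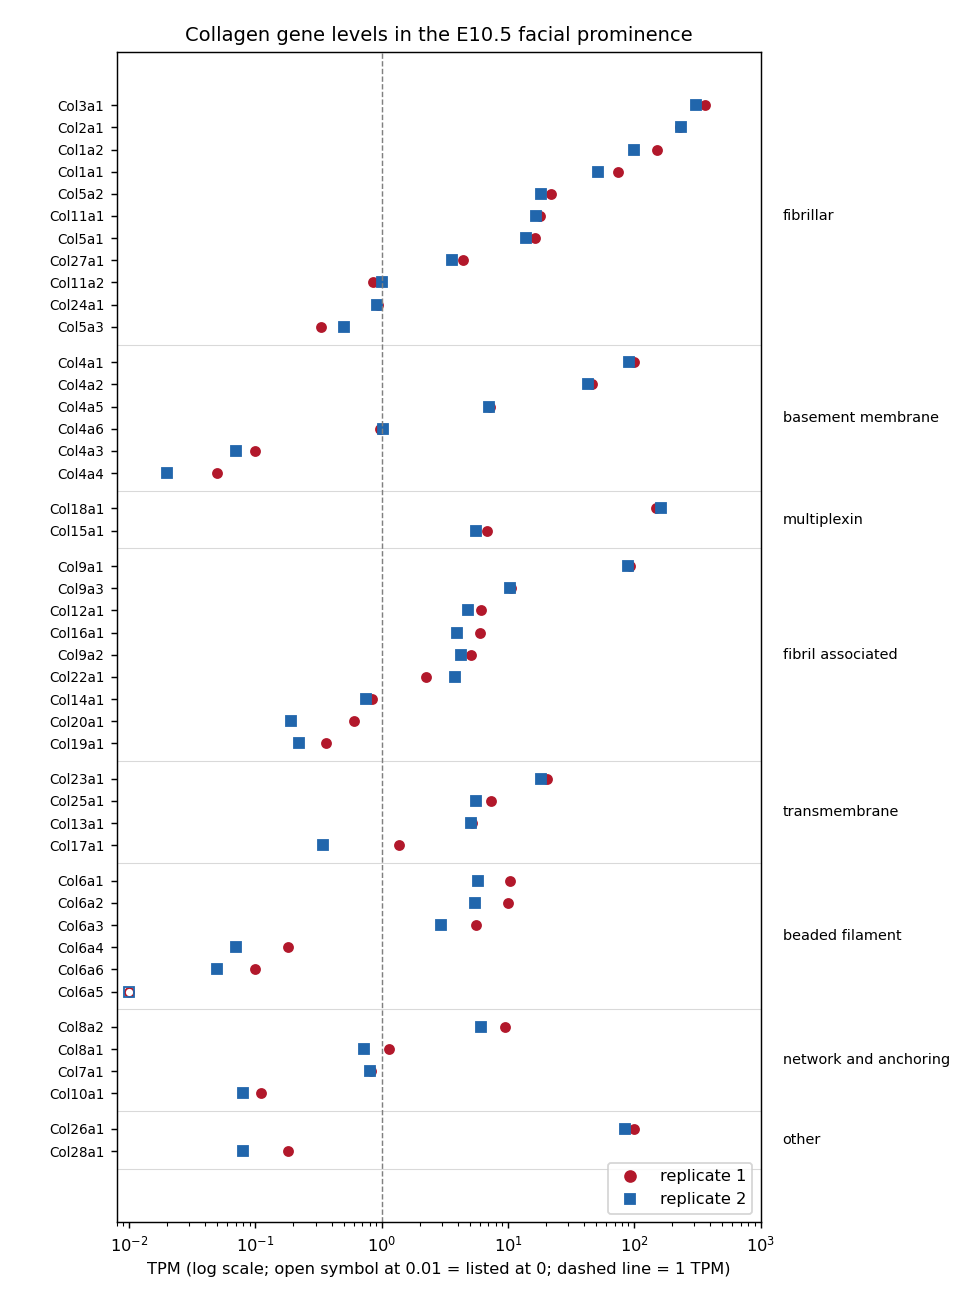
Level of each of the 44 collagen genes in TPM on a log scale, grouped by class, with replicate 1 as circles and replicate 2 as squares. Fibrillar genes span from 0.415 TPM for Col5a3 to 334 TPM for Col3a1, and the type VI chains Col6a1, Col6a2 and Col6a3 are among those in which the pools stand clearly apart.

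Fibrillar collagens were the most abundant class, holding 58.1% ± 1.57 of collagen TPM, with 8 of 11 members detected. Col3a1 encodes the type III chain of soft connective tissue (ENSMUSG00000026043, chromosome 1, 45311538 to 45349706) and had 361 TPM in replicate 1 and 307 TPM in replicate 2. Col2a1 encodes the type II chain of cartilage and notochord (ENSMUSG00000022483, chromosome 15, 97975602 to 98004695) and had 231 and 236 TPM. The type I chains of skin, tendon and bone followed, with Col1a2 at 150 and 98.9 TPM and Col1a1 at 74.97 and 51.39 TPM in replicates 1 and 2. Both type I genes were higher in replicate 1, whereas the pools lay close together for Col2a1.

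Minor fibrillar chains, which join the major ones and limit the diameter of fibrils, stood lower. Col5a2 had 20.0 ± 2.68 TPM, Col5a1 15.0 ± 1.76 TPM and Col11a1, the type XI chain of cartilage fibrils, 17.3 ± 0.771 TPM. Col27a1, a fibrillar collagen of cartilage, stood at 4.03 ± 0.587 TPM. The undetected members were Col11a2 (0.93 ± 0.099 TPM), Col24a1 (0.925 ± 0.0212 TPM) and Col5a3 (0.415 ± 0.12 TPM), each with at least 52 counts in both libraries. Their reads were thus present, and their levels low.

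Most of the chains compared were unequal in RNA level. For 18 pairs, the log2 difference in TPM was taken within each library and set against the replicate spread pooled over the 200 genes nearest in level, a measure that leaves out errors of TPM particular to a gene. Col1a1 stood at 0.510 of Col1a2 (95% interval 0.457 to 0.568), although type I collagen protein contains more of the chain that Col1a1 encodes. Col5a1 was at 0.752 of Col5a2 (0.643 to 0.879), while Col5a1 exceeded Col5a3 29.7-fold (17.9 to 49.1). Col11a1 exceeded Col11a2 16.9-fold (11.3 to 25.3), and Col2a1 exceeded Col11a1 13.5-fold (11.9 to 15.3). In 16 of the 18 pairs the interval did not include a ratio of 1 and the pools gave the same sign. The 18 pairs also hold genes of separate molecules, such as Col18a1 and Col15a1. No share over other gene pairs was taken, so the count of 16 is not a result particular to collagen chains.

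**Figure D2:**
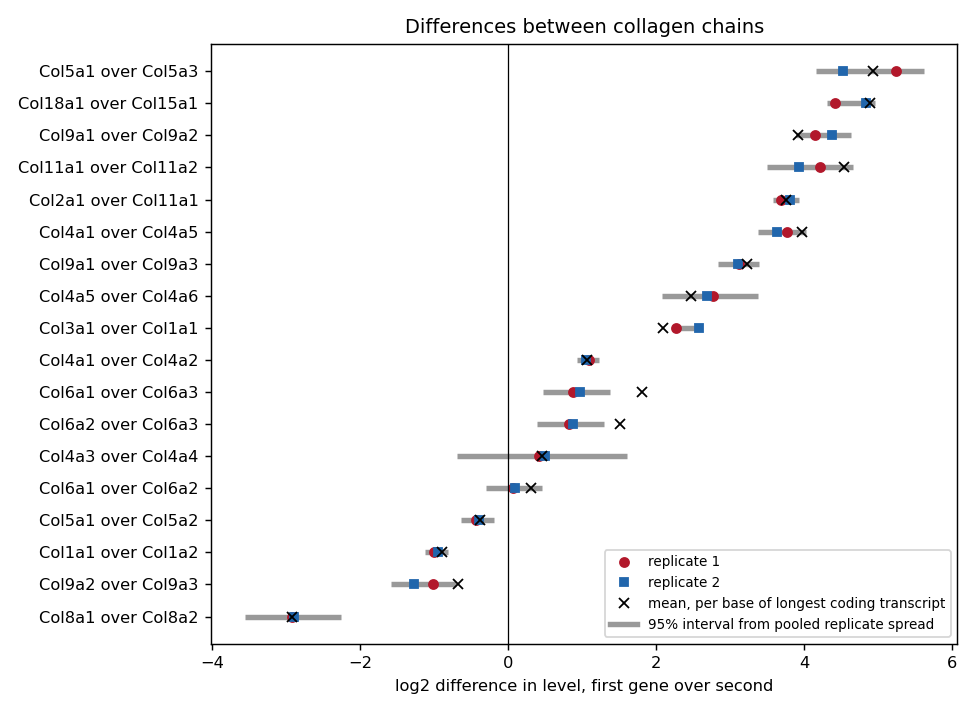
Log2 difference in level between 18 pairs of collagen chains, first gene over second, for replicate 1 (circles) and replicate 2 (squares), with the 95% interval from the pooled replicate spread as a grey bar and a cross for the mean when counts are divided by the longest coding transcript. Col1a1 lies below Col1a2 in both pools, and Col6a1 and Col6a2 lie at 0 within the interval. The crosses of the pairs with Col6a3 lie to the right of their bars, and that of Col9a2 over Col9a3 just to the right. The cross of Col3a1 over Col1a1 lies to the left of its bar.

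Basement membrane type IV collagen held 10.6% ± 0.32 of collagen TPM, with 3 of 6 genes detected, and came mostly from its ubiquitous chains. Col4a1 (ENSMUSG00000031502, chromosome 8, 11198423 to 11312826) had 99.1 TPM in replicate 1 and 90.1 TPM in replicate 2, and Col4a2 had 46.2 and 43.3 TPM. Col4a1 exceeded Col4a2 2.11-fold (1.90 to 2.35), with log2 differences of 1.10 and 1.06 in the pools. Col4a5, a chain of the kidney, skin and smooth muscle basement membranes, stood at 7.15 ± 0.0354 TPM, and Col4a1 exceeded it 13.1-fold (10.4 to 16.4). Its partner Col4a6 was 6.62-fold lower than Col4a5 (4.21 to 10.4). Col4a3 and Col4a4, chains of the mature glomerulus, had at most 22.51 counts in a library and levels of 0.085 ± 0.0212 and 0.035 ± 0.0212 TPM. They did not differ from each other beyond the spread (ratio 1.37, interval 0.617 to 3.06). That ratio was taken after adding 0.1 TPM to each level, which draws levels this low together. It therefore cannot show whether they differ.

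Each type IV gene lies head to head with its partner, and the annotation (GENCODE M21, whose GRCm38 coordinates equal those of mm10) shows how close they are. The annotated starts of Col4a1 and Col4a2 were 21 bases apart, so that the genes overlap by 22 bases, and those of Col4a3 and Col4a4 were 72 bases apart. The starts of Col4a5 and Col4a6 were 1309 bases apart. The ratios of these 3 pairs were 2.11 for Col4a1 over Col4a2, 1.37 for Col4a3 over Col4a4 and 6.62 for Col4a5 over Col4a6. Col4a3 and Col4a4 lay at or below the 0.1 TPM added before ratios were taken, so their ratio cannot be set beside the others. The promoter windows of Col4a1 and Col4a2 from RefSeq (GRCm38.p6, 250 bases before to 50 after each start) are shown because they serve the pair of genes with the highest type IV levels. Their windows share 78 bases read from opposite strands, given in capitals, and each holds 1 CCAAT and at least 1 GGGCGG on either strand.
Col4a1, chr8:11312777-11313076, minus strand: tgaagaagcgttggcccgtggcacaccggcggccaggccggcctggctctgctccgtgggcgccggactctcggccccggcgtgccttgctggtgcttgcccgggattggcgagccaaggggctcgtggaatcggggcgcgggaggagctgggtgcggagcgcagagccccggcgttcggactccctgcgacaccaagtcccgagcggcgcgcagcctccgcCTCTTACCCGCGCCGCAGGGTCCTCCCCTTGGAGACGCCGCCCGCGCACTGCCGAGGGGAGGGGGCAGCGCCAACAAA
Col4a2, chr8:11312555-11312854, plus strand: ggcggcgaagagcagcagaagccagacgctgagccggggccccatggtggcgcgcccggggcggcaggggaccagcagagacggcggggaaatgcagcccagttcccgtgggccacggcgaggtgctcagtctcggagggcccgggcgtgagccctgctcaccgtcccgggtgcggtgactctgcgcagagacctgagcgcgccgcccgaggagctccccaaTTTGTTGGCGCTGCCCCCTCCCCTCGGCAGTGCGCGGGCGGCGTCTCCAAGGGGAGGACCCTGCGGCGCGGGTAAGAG

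Across the family, a RefSeq promoter window was found for 35 of the 44 genes, 38 windows in all. Of these, 23 (60.5%) held GGGCGG on either strand, against 35.6% of the 32813 other windows. CCAAT was found in 13 (34.2%), against 37.4% of other windows, and TATAAA in 5 (13.2%), against 13.6%. The median GC content was 59.8% in collagen windows, against 52.7% over all windows of the table. The part of GC content in the motif shares was not tested. Col3a1, the most abundant member, had the collagen window of lowest GC content at 37.7%. Col2a1, Col26a1 and Col1a1, also among the leading genes, had no window and are not in these shares. These matches describe letters and no binding.

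The multiplexins, which carry interrupted helices and lie in basement membrane zones, held 11.7% ± 1.60 of collagen TPM, nearly all of it from 1 gene. Col18a1, the source of endostatin, had 150 TPM in replicate 1 and 163 TPM in replicate 2. Col15a1 stood at 6.23 ± 0.919 TPM, and Col18a1 exceeded it 24.8-fold (19.8 to 31.1). Col18a1 thus stood above either main type IV chain in both pools.

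Other genes of basement membranes were present throughout. All 10 on the list were detected, against 58.2% of all protein coding genes. Their median was 21.0 TPM, near the 20.1 TPM of all detected protein coding genes. Highest were Nid2 (45.2 ± 0.552 TPM), Nid1 (43.1 ± 0.368 TPM) and the laminin chain Lamb1 (35.7 ± 2.91 TPM), and lowest was Lama2 (6.14 ± 1.15 TPM). All 3 leading partners lay below Col4a1 and below Col18a1 in both pools.

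Fibril-associated collagens held 8.67% ± 0.461 of collagen TPM and were led by type IX, whose chains lie on the surface of cartilage fibrils. Col9a1 had 92.2 TPM in replicate 1 and 89.7 TPM in replicate 2, Col9a3 10.5 and 10.4 TPM, and Col9a2 5.10 and 4.23 TPM. Type IX collagen is built from a chain of each gene, yet Col9a1 exceeded Col9a2 19.2-fold (14.8 to 24.9) and Col9a3 8.66-fold (7.16 to 10.5). Col9a2 was also below Col9a3, at 0.451 of it (0.333 to 0.611). That ratio was 0.624, outside the interval, when counts were divided by the longest coding transcript. Of the class, 6 of 9 genes were detected, and the others were Col12a1 (5.45 ± 0.912 TPM), a collagen of dense connective tissue, Col16a1 (6.04 and 3.96 TPM in replicates 1 and 2) and Col22a1 (3.02 ± 1.09 TPM), a collagen of tissue junctions. Col14a1 (0.795 ± 0.0636 TPM), Col20a1 (0.395 ± 0.29 TPM) and Col19a1 (0.29 ± 0.099 TPM) were not detected.

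The transmembrane collagens, with 3 of 4 genes detected, held 2.27% ± 0.068 of collagen TPM and were led by Col23a1 at 20.6 TPM in replicate 1 and 18.2 TPM in replicate 2. Col25a1, needed in mouse for the innervation of muscle, had 7.31 and 5.54 TPM, and Col13a1, a collagen of the neuromuscular junction, 5.18 and 5.06 TPM. Col17a1, the collagen of hemidesmosomes that anchor epithelium, was undetected at 1.38 and 0.34 TPM, the largest ratio between pools among the 35 members averaging 50 counts or more.

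Type VI collagen held 1.43% ± 0.478 of collagen TPM, with 3 of 6 genes detected. Col6a1, Col6a2 and Col6a3, the chains of the beaded filaments around cells, had 10.4, 9.97 and 5.60 TPM in replicate 1 and 5.82, 5.44 and 2.93 TPM in replicate 2. Col6a1 and Col6a2 did not differ beyond the spread (ratio 1.05, interval 0.809 to 1.38), and Col6a1 exceeded Col6a3 1.90-fold (1.38 to 2.60). That last ratio was 3.52 when counts were divided by the longest coding transcript. By TPM, 39.8% and 46.1% of Col6a3 in replicates 1 and 2 lay in Col6a3-206, a retained-intron transcript of 646 bases with 32.27 and 19.45 counts. For Col6a2 over Col6a3 the ratio was 1.80 (1.31 to 2.46) by TPM and 2.85 by the longest transcript. The other type VI genes Col6a4 and Col6a6 stood at 0.125 ± 0.0778 and 0.075 ± 0.0354 TPM, and Col6a5 had no counts in either library, where a count of 0 allows up to 3 counts by counting error.

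Network and anchoring collagens held 0.68% ± 0.132 of collagen TPM, with 1 of 4 detected. Col8a2, known from the corneal endothelium, had 9.41 TPM in replicate 1 and 6.09 TPM in replicate 2. Its partner Col8a1 stood at 0.133 of it (0.085 to 0.208). Col7a1, the anchoring fibril collagen of skin, stood at 0.81 ± 0.0141 TPM. Col10a1, a marker of hypertrophic chondrocytes, had 9 and 6 counts and 0.095 ± 0.0212 TPM. Col26a1 was among the leading 8 at 99.1 TPM in replicate 1 and 85.1 TPM in replicate 2, where its range overlapped that of Col4a1. Its protein carries short collagen stretches beside an EMI domain. Col28a1 had 0.13 ± 0.0707 TPM.

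Cartilage-type collagens thus stood at very different levels in the same tissue. This grouping goes by collagen type and not by transcript form. The long Col9a1 transcript, known from cartilage, held 0.19% and 0.04% of Col9a1 TPM in replicates 1 and 2. Col2a1 and Col9a1 were among the leading 8, Col11a1 was intermediate, Col9a3, Col9a2 and Col27a1 lower, and Col11a2 and Col10a1 undetected. Of the cartilage markers outside the family, the regulators Sox9 (92.5 ± 3.18 TPM) and Sox5 (50.6 ± 2.87 TPM) were highest, and Sox6 stood at 4.31 ± 0.226 TPM. The cartilage matrix genes on that list ranged widely, with Hapln1 at 14.2 ± 2.71 TPM and Matn3 at 2.63 ± 0.184 TPM detected, and Comp, Acan and Matn1 undetected at 0.17 ± 0.099, 0.13 ± 0.014 and 0.05 ± 0.071 TPM.

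Transcript usage was compared between the pools for the abundant members. Of the 14 members with a mean of at least 10 TPM and more than 1 annotated transcript, all 14 had the same leading transcript in both pools. This is near the background of 94.8% of protein coding genes under the same filter, and so not particular to collagens. In 9 of the 14 (64.3%) the leading transcript held at least 90% of the gene's TPM, against 23.8% of protein coding genes under the same filter. Col2a1, Col9a1 and Col18a1 have well known alternative forms, and the deposited shares separated them.

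Col2a1 was expressed mainly with its exon 2. The transcript with that exon, Col2a1-201, held 61.3% of Col2a1 in replicate 1 and 64.3% in replicate 2, and Col2a1-202, which lacks it, 30.03% and 26.50%. Taken between these forms alone, the one with exon 2 made up 69.0% ± 2.61. Exon 2 encodes a cysteine-rich domain of the procollagen, and the form that includes it is the one known from precartilage and other embryonic tissue, whereas mature chondrocytes skip it. The exon is shown since it is what sets the forms apart; it has 204 bases, lies within the coding sequence (GRCm38, from the GENCODE M21 transcripts), and its 10 in-frame TGC and TGT codons, which encode cysteine, are in capitals.
Col2a1 exon 2, chr15:98000403-98000606, minus strand: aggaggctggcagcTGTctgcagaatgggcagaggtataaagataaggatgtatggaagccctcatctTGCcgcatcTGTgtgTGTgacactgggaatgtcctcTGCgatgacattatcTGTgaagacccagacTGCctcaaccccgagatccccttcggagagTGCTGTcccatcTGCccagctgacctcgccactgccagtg

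For Col9a1 the short form prevailed. Col9a1-202 starts at an internal promoter and lacks the exons of the large amino-terminal domain of the long form. It held 98.7% of Col9a1 TPM in replicate 1 and 98.4% in replicate 2. The long form Col9a1-201, known from cartilage, held 0.19% and 0.04%. In Col18a1 the transcript Col18a1-202, which starts at the upstream promoter and encodes the short form of vascular and epithelial basement membranes, held 99.8% and 99.9%, and the longer forms Col18a1-201 and Col18a1-203 each held at most 0.1% in either pool. For both genes nearly all TPM was thus assigned to transcripts of 1 known promoter. Windows from RefSeq (GRCm38.p6) are shown for this promoter of each gene and for that of the long form of Col9a1, with any match to the 3 motifs named above, on either strand, in capitals. The windows of the leading forms held 1 CCAAT in Col9a1, and 1 CCAAT with 3 GGGCGG in Col18a1, while the window of the Col9a1 long form held no match.
Col9a1 short form, chr1:24194953-24195252, plus strand: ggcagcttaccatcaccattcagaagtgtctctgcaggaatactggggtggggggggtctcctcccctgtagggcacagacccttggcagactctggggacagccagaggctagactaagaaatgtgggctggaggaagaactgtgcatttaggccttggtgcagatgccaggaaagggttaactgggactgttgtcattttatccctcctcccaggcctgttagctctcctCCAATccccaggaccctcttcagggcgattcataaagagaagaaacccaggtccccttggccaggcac
Col9a1 long form, chr1:24177360-24177659, plus strand: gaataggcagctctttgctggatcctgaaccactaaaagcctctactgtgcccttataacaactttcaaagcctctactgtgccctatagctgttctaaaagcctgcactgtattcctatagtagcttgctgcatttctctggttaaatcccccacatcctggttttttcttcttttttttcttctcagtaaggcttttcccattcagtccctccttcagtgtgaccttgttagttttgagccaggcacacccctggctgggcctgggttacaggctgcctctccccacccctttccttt
Col18a1 short form, chr10:77166481-77166780, minus strand: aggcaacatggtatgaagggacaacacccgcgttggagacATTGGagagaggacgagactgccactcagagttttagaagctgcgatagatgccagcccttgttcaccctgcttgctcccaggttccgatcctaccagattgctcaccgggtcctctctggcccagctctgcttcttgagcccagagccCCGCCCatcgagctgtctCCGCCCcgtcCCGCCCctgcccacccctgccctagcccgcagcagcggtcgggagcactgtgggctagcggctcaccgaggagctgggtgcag

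**Figure D3:**
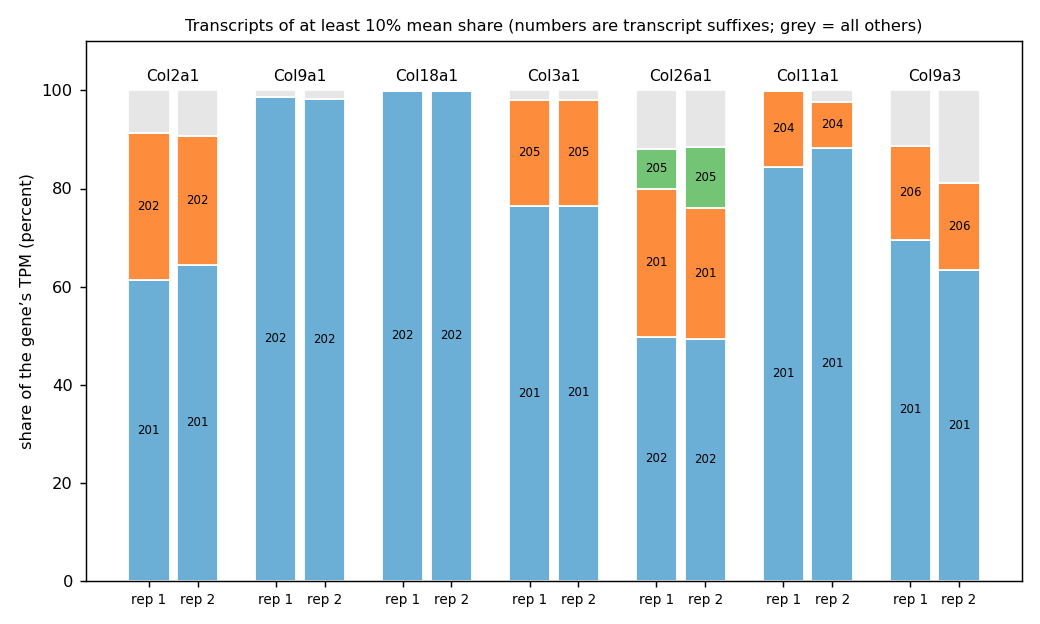
Share of each gene's TPM held by its transcripts of at least 10% mean share, in percent, for 7 collagen genes, with replicate 1 left and replicate 2 right in each pair of bars and all other transcripts in grey. Col9a1-202 and Col18a1-202 fill nearly the whole bar in both pools, and Col2a1-201 is the larger of the Col2a1 forms in both pools.

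Other members gave a mixed picture in which short annotated fragments took part of the TPM. Col3a1-201, the full-length form, held 76.4% in both pools, and Col3a1-205, a fragment of 737 bases, held 21.6% and 21.5% of TPM with 1318 and 1111 counts. Col26a1 was split between Col26a1-202 (49.5% ± 0.29) and Col26a1-201 (28.5% ± 2.54), which differ by a few coding bases at an exon boundary. In Col11a1, Col11a1-201 held 84.4% and 88.3%, and a nonsense-mediated decay transcript 15.5% and 9.46%. Among the 27 detected members, 9 had under 75% of their TPM in coding transcripts of at least 0.5 of the length of the longest, a limit set after their values were seen. These were Col9a3, Col25a1, Col15a1, Col12a1, Col13a1, Col16a1, Col6a3, Col27a1 and Col22a1. For Col6a3 the rest lay mainly in a short transcript with few reads, while for Col25a1 it lay mainly in Col25a1-204, a nonsense-mediated decay transcript of 3778 bases with 296 and 213 counts.

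The pools differed for some collagens. Of the 35 members that averaged 50 counts or more, 7 (20.0%) were at least 1.5-fold higher in replicate 1 after TMM scaling, against 2.62% of 12944 protein coding genes at that depth, and 1 (2.86%) was higher in replicate 2, against 1.8%. Replicate 1 was the higher pool, by any amount, for 26 of the 35 (74.3%), against 48.8% of all genes, and their ratios had a median of 0.20 on the log2 scale, against -0.004 over all genes. These ratios set 1 library against another, so no p-value is given, and the intervals below cover counting error only. Before the members and lists were chosen, matrix genes were known to run higher in replicate 1. Heart genes and some genes listed for neural tube were known to run higher in replicate 2. These counts are thus no independent evidence of either.

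All 3 detected type VI chains were among the 7. Col6a3 was 2.06-fold higher in replicate 1 (counting interval 1.82 to 2.33), Col6a2 1.80-fold (1.62 to 2.00) and Col6a1 1.75-fold (1.58 to 1.94). Col17a1 was 5.30-fold higher (3.69 to 8.89) on 150 counts in replicate 1 and 26 in replicate 2. The remaining 3 lay just past the threshold, Col8a1 at 1.53-fold (1.19 to 2.00), Col8a2 at 1.52-fold (1.38 to 1.67) and Col1a2 at 1.51-fold (1.48 to 1.55), with Col1a1 just short of it at 1.42-fold (1.38 to 1.46). The partners in types VI and VIII had overlapping counting intervals, those of Col1a1 and Col1a2 did not overlap, and in type V Col5a3 lay on the other side of 1 from Col5a1 and Col5a2. At a 2-fold threshold Col17a1 and Col6a3 alone remained, against 0.688% of all genes higher in replicate 1 and 0.518% higher in replicate 2, where 0 members were. Below 1.5-fold, Col15a1 stood at 1.41 (1.25 to 1.60), Col25a1 at 1.38 (1.25 to 1.52), Col7a1 at 1.33 (1.01 to 1.78) and Col16a1 at 1.29.

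No type IV or cartilage-type gene that averaged 50 counts or more was 1.5-fold apart between the pools. The type IV ratios of replicate 1 over replicate 2 were 1.08 for Col4a1 (1.05 to 1.10), 1.05 for Col4a2 (1.01 to 1.08), 0.982 for Col4a5 (0.899 to 1.07) and 0.953 for Col4a6 (0.766 to 1.19). Those of Col9a1 (1.01, 0.98 to 1.05), Col11a1 (1.02, 0.967 to 1.07) and Col2a1 (0.965, 0.949 to 0.981) were near 1. The other cartilage-type genes were higher in replicate 1 by similar amounts to Col3a1, Col27a1 at 1.18 (1.03 to 1.36), Col9a2 at 1.18 (1.02 to 1.38), Col11a2 at 1.13 (0.842 to 1.53) and Col9a3 at 1.10 (0.979 to 1.24), where the last 2 intervals include 1. Col18a1 was lower in replicate 1 at 0.903 (0.886 to 0.921). Scaling to the spike-in controls instead raises every log2 ratio by about 0.21, which puts the ratios of Col18a1, Col2a1, Col4a5 and Col4a6 above 1 and leaves 33 of the 35 members higher in replicate 1. Col3a1 was 1.15-fold higher in replicate 1 (1.14 to 1.17), as were Col5a2 (1.18), Col5a1 (1.16) and Col26a1 (1.20) by like amounts. Col5a3, the member higher in replicate 2, had 52 counts in replicate 1 and 80 in replicate 2, a 1.56-fold difference, and Col22a1 (0.817, 0.710 to 0.937) and Col13a1 (0.876, 0.749 to 1.02) were also below 1, Col13a1 not under spike-in scaling.

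**Figure D4:**
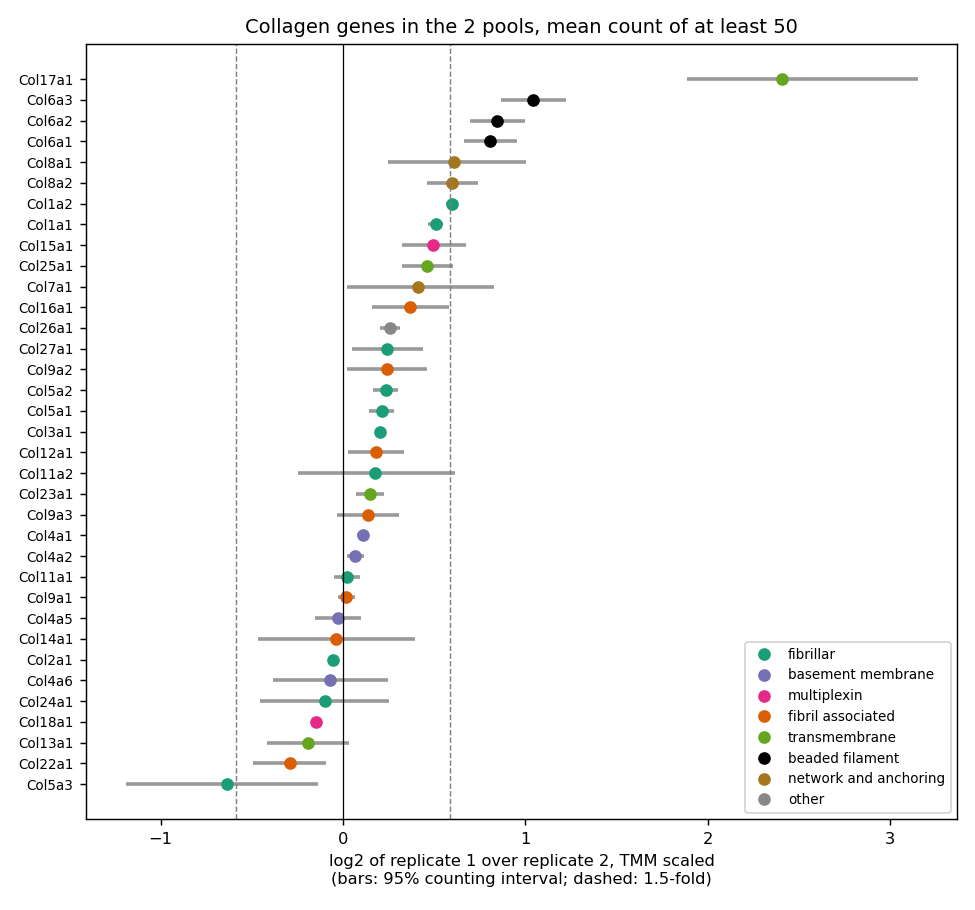
Log2 ratio of replicate 1 over replicate 2 after TMM scaling for the 35 collagen genes averaging 50 counts or more, coloured by class, with 95% counting intervals as bars and dashed lines at 1.5-fold. The type VI chains lie right of the line at 1.75-fold to 2.06-fold, Col17a1 at 5.30-fold, and the type IV chains around 0.

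Genes of the marker lists also moved between the pools. Of the 5 heart markers with enough counts, 4 were at least 1.5-fold higher in replicate 2, and the summed level of all 6 was 11.2 TPM in replicate 1 and 35.0 TPM in replicate 2. Of the 6 genes listed for neural tube 3 were that much higher in replicate 2, with summed levels of 32.9 and 54.1 TPM. They were not shown to mark neural tube alone here. The neural tube list did not move as a whole. Olig2 was 1.46-fold higher in replicate 1 (1.157 to 1.855), and the ratios of Sox2 (0.759) and Sox1 (0.935) fell short of the threshold. Markers of surface ectoderm, the tissue of Col17a1, summed to 321 and 331 TPM in replicates 1 and 2 with 0 of 6 past 1.5-fold, and endothelial markers were at 163 and 158 TPM with 0 of 6. Among mesenchyme markers Alx1 alone was past the threshold, 1.62-fold higher in replicate 1 (1.55 to 1.70), and among osteoblast markers Runx2 was, 3.23-fold (2.48 to 4.44). The osteoblast list as a whole summed to 19.4 TPM in replicate 1 and 22.8 TPM in replicate 2, and its highest member Alpl was lower in replicate 1 at 0.670 (0.607 to 0.739), just short of the threshold. No marker of these lists was at 0 in both pools, and those at 0 in 1 pool were Matn1 of cartilage in replicate 1 and Bglap of osteoblasts in replicate 2. The part of these differences in the collagen ratios was not tested.

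Of the genes that fold, process, crosslink or bind collagen, 47 of 56 on the 6 pathway lists were detected, against 58.2% of all protein coding genes. The list of secretion and processing (6 of 10) and that of receptors (5 of 8) lay near this background. For folding and hydroxylation, all 17 genes were detected, led by the collagen chaperone Serpinh1 (833 and 830 TPM in replicates 1 and 2), the prolyl hydroxylase subunit P4hb (474.6 ± 1.52 TPM) and the isomerase Ppib (371 ± 5.24 TPM), each above Col3a1, and lowest for the galactosyltransferase Colgalt2 (1.41 ± 0.247 TPM). For secretion and processing 6 of 10 were detected, led by the procollagen protease enhancer Pcolce (103 ± 3.73 TPM), the export receptor gene Mia3 (77.5 ± 3.29 TPM) and Mia2 (38.6 ± 0.82 TPM), with Tll2 lowest (0.155 ± 0.106 TPM). Mia3 had 2081 and 2178 counts in replicates 1 and 2, fewer than the 2600 and 2639 of Mia2. Its higher TPM thus rests on a shorter length of transcript, and its transcripts were not examined. Of the lysyl oxidase genes, whose enzymes crosslink collagen, 4 of 5 were detected, with Loxl2 (18.8 ± 1.57 TPM), Loxl3 (9.26 ± 0.134 TPM) and Loxl1 (7.86 ± 2.90 TPM) highest and Loxl4 (0.215 ± 0.021 TPM) lowest.

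Of 8 receptor genes 5 were detected, led by the integrin beta chain Itgb1 (108 ± 2.69 TPM) and the discoidin receptors Ddr2 (55.1 ± 4.36 TPM) and Ddr1 (47.8 ± 9.19 TPM). The collagen-binding integrin alpha chains were low or undetected, Itga11 at 1.79 ± 0.127 TPM, Itga1 at 1.67 ± 0.375 TPM, Itga2 at 0.595 ± 0.233 TPM and Itga10 at 0.395 ± 0.092 TPM. Lair1 was lowest at 0.16 ± 0.071 TPM. Of 6 proteoglycans that bind fibrils 5 were detected, led by Lum (26.1 ± 10.4 TPM), Bgn (14.8 ± 2.26 TPM) and Dcn (2.81 ± 1.05 TPM), with Prelp lowest (0.695 ± 0.106 TPM). Of the 51 pathway genes averaging 50 counts or more, 10 (19.6%) were at least 1.5-fold higher in replicate 1 and 0 in replicate 2, against 2.62% and 1.8% of all genes. They were Adamts2 (2.11-fold) and Tll1 (1.66) among the processing enzymes, Lox (2.02) and Loxl1 (1.67) among the crosslinkers, Lum (1.75), Ogn (1.74) and Dcn (1.67) among the proteoglycans, P4ha3 (1.95), Itga2 (1.69) and, at the threshold, the laminin chain Lama2.

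**Figure D5:**
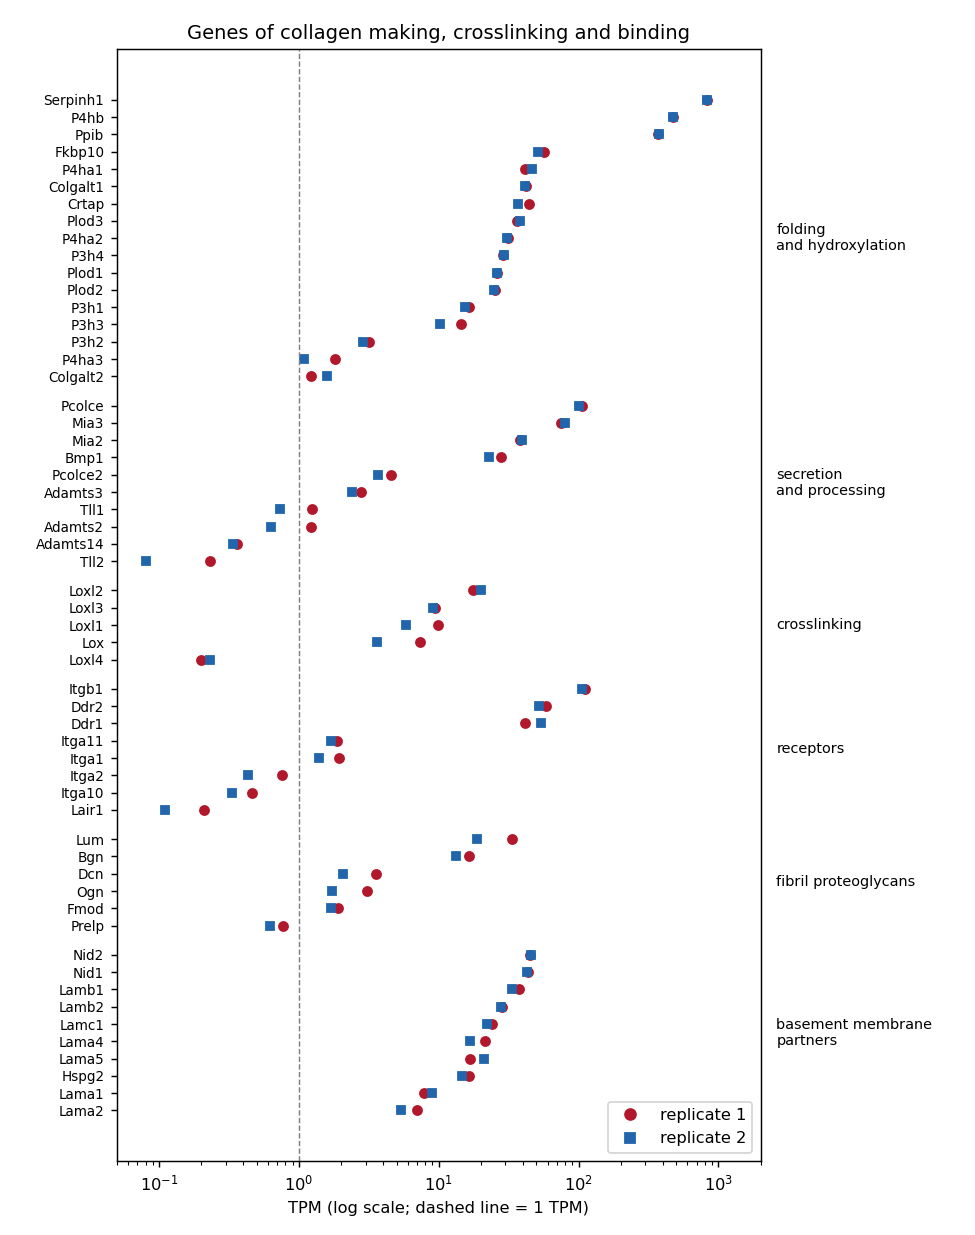
Level in TPM on a log scale of 56 genes that fold, process, crosslink or bind collagen, grouped by list, with replicate 1 as circles and replicate 2 as squares. Serpinh1, P4hb and Ppib stand at 371 TPM or above in the mean, and Lox, Loxl1 and Lum are among the genes whose pools stand apart.

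The members also shared features of position and gene structure. Besides the head-to-head type IV pairs, 5 pairs of members were direct neighbours with no protein coding gene between them. Col3a1 and Col5a2 lie tail to tail with 24614 bases between them, at 334 ± 38.0 and 20.0 ± 2.68 TPM, and Col9a1 and Col19a1 lie tail to tail with 9205 bases between them, at 90.9 ± 1.77 and 0.29 ± 0.099 TPM. Col6a2 and Col6a1 follow each other on the same strand 85161 bases apart, at like levels, while Col6a4, Col6a5 and Col6a6 form a run of undetected genes on chromosome 9. Neighbours were thus at like levels in some places and far apart in others.

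Collagen exons follow the glycine-X-Y repeat, whose codons take 9 bases. In the coding transcript with the longest coding sequence, 63.9% of the 1916 internal coding exons of collagen genes had a length divisible by 9, against 13.6% of 154068 in other protein coding genes. Exons of exactly 54 bases made up 48.6% of those of fibrillar genes, 26.3% of those of fibril-associated genes and 4.23% of those of type IV genes, against 0.398% in other genes. Of the leading members, Col3a1 had 24 such exons among 49 and Col4a1 had 2 among 50. Col26a1, among the leading 8 by level, had 0 among 11.

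Read assignment left whole counts for most members. Expected counts were whole numbers (within 0.005) in both libraries for 40 of the 43 members with a count (93.0%), against 75.4% of protein coding genes with a count, so that no fraction of a read was left after summing over the transcripts of these members. The exceptions were Col5a1, Col9a3 and Col4a3, with 3579.64, 619.95 and 22.51 counts in replicate 1. Col6a6 and Col6a5 had whole expected counts, yet the deposited posterior SD of each count was 0.27 in replicate 1. Whole counts thus do not exclude uncertain assignment. In the annotation 17 members overlap a gene of the other strand, 5 of them a protein coding one, which is 38.6% and 11.4% of the family, against 36.0% and 16.7% of all protein coding genes. The longest such overlap with a protein coding gene was that of Col18a1 with Slc19a1, over 8825 bases, and Col10a1 shares 7105 bases with Nt5dc1 and Col9a3 234 bases with Tcfl5. The sources used here do not say whether counting took strand into account, and without it reads of such partners cannot be told apart.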

How the data were processed

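Total RNA-seq of 2 pools of embryonic facial prominence was used. Expected counts and posterior mean counts were deposited by the authors per gene, not normalized. TPM was deposited by the authors per gene and transcript, scaled over all features of a file, spike-in controls included, and the share of a transcript in its gene was deposited as a percent. The deposited notes name mm10 and GENCODE M4; they name no aligner or quantifier. The deposited interval bounds were not used.

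Genes were named by identifier from GENCODE M21, which matched 42462 of 43346 Ensembl genes. Counts were rounded to whole numbers, scaled with TMM factors (edgeR 4.0.16, from genes averaging 10 counts or more) and compared as log2 ratios with a prior count of 2. With 1 group no condition was tested. Chain pairs used log2(TPM + 0.1) and 95% intervals of 1.96 standard errors. The pools were not duplicates of each other (chi-square 8.93 per degree of freedom over 17567 genes) and counted as 2 samples. Counting intervals are exact (Clopper-Pearson) and cover counting error only; reads are not independent molecules. A simplified form of the calculations was run on simulated counts, with a median ratio in place of TMM and not on TPM. Alternatives were DESeq2 1.42.0 size factors, spike-in scaling, other thresholds, pseudocounts, filters and estimates, and each pool alone.

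All members may be named; of the pathway lists the 3 highest, the lowest and those at least 1.5-fold apart were, and of the markers the highest. Genes named beyond this rule, such as Comp, Acan, Matn1, Sox5, Sox6, Hapln1, Matn3, Runx2, Alx1, Bglap, Olig2, Sox2, Sox1, Itga11, Itga1 and Itga10, were chosen after their values were seen. The members and lists were chosen with earlier results of these data known.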

Additional observations from a re-analysis of the deposited data

How the results depend on the processing

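Detection of collagen genes (27 of 44) ranged from 26 to 33 over the alternatives, and was 29 in each pool alone. The collagen share of gene counts (0.430%) ranged from 0.404% to 0.456% in single pools. The fibrillar share of collagen TPM was 58.1% and became 56.3% when only coding transcripts of at least 0.5 of the longest one's length were counted, an alternative added after the data were seen. Spike-in scaling shifted the median log2 ratio of all genes to 0.21, and 11 collagen genes were then at least 1.5-fold higher in replicate 1 and 0 in replicate 2, against 5.81% and 0.88% of all genes. A mean count of at least 10, or no filter, gave 12 higher in replicate 1 (5.18% and 6.57% of all genes). Each gave 1 higher in replicate 2 (3.43% and 5.69% of all genes). At 2-fold, 2 were higher in replicate 1 and 0 in replicate 2, against 0.688% and 0.518% of all genes. The DESeq2 size factors, deposited TPM and posterior mean counts gave 7, 8 and 7 higher in replicate 1, against 2.6%, 3.04% and 2.59% of all genes. They each gave 1 higher in replicate 2, against 1.81%, 1.75% and 1.75%. The same transcript led in both pools for 14 of 14 genes, and for 22 of 23 at a mean of at least 5 TPM, the exception being Col13a1. With posterior mean shares it was 14. The share over all genes at 5 TPM was not taken. Agreement between the pools cannot be asked of each pool alone. Of the 18 pairs, 16 differed, and 16 to 17 did under all alternatives. With the levels of each pool alone it was 16. In those runs the spread still came from both pools, so they were not free of the pool left out. Col4a3 over Col4a4 passed with posterior mean TPM (log2 1.05), and no pair changed direction. Leaving out a pool could not be run for ratios between the pools. Depth limits the 9 members under the count filter, none of which had more than 41 counts in a library. No paired analysis was possible because there is 1 group.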
